A study of Mus musculus with 4 samples.

Results

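Neddylation, the attachment of the small ubiquitin-like protein NEDD8 to target proteins, was examined in RNA-seq libraries of medullary thymic epithelial cells (mTECs) through 10 genes, taken by symbol from the 23337 genes of the count table. These were *Uba3* and 9 partners, namely *Nae1*, *Nedd8*, *Ube2m*, *Ube2f*, *Dcun1d1*, *Senp8*, *Cul1*, *Cul2* and *Cul3*. The set was chosen by a readout, the *Uba3* fold change, because its level in these same libraries was much higher in *Sirt6* cKO than in WT, so the difference of *Uba3* is given as a description and was not tested. The partners were taken for their place in the pathway. All 10 genes passed the filter on low counts.

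The cells came from the thymus of 4-week-old C57BL/6 mice and were sorted as CD45-EpCAM+UEA-1+Ly51-. Sequencing gave 2 libraries of wild type (WT, without the Cre transgene) and 2 of the genotype that the labels give as Sirt6-/-, called *Sirt6* cKO here. In these mice *Foxn1*-Cre, which is active in thymic epithelial cells, deletes loxP-flanked *Sirt6*, so other cells of the sort keep the gene. The replicates were described as independent samples, without the number of mice in each, and the p-values therefore measure the spread between libraries.

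The libraries held between 61102704 and 65907745 counts. *Sirt6*, the targeted gene, was read 622 and 755 times in WT against 882 and 835 times under the label *Sirt6* cKO, so it was not lower there (log2 fold change 0.37, SE 0.32, edgeR adjusted p = 0.80, where SE is the standard error), and the direction of every difference rests on the labels. The counts are per gene and do not show whether the reads came from the deleted exons. The paper reports inactivation of *Sirt6*, checked by western blot of cultured thymic epithelial cells and by quantitative PCR of sorted cells. The 8 mTEC markers, among them *Epcam*, *Aire* and *Fezf2*, were all detected, with summed levels of 3877 and 4851 CPM (counts scaled to library size by TMM) in WT and 4162 and 4879 in *Sirt6* cKO. The highest of the 8 was *Krt8*, at 1858.2 and 2585.2 CPM in WT and 1697.9 and 1831.2 in *Sirt6* cKO. The paper stains KRT8 to mark the cortex, so this sum is not specific to the medulla. The 6 markers of macrophages and dendritic cells were detected too, although the sort excluded CD45+ cells. Their summed level was 5212 and 3074 CPM in WT and 1983 and 2098 in *Sirt6* cKO. Most of it came from *Lyz2*, at 4646.9 and 2814.9 CPM in WT and 1777.6 and 1906.5 in *Sirt6* cKO. At an unadjusted p of 0.05 in edgeR, 3 of them (*Lyz2*, *C1qa* and *Adgre1*, listed as *Emr1*) were lower, beside 3.32% of all genes tested. *Csf1r* and *Itgax* had log2 fold changes of -0.56 and -0.20, and *Itgam* went the other way at 0.57. Of the 8 mTEC markers, 3 (*Epcam*, *Aire* and *Cd80*) were higher and 0 lower at that threshold, beside 5.27% and 3.32% of all genes tested. *Krt8* and *Fezf2* had log2 fold changes of -0.33 and -0.20. The 5 markers of cortical thymic epithelial cells summed to 952 and 953 CPM in WT and to 1109 and 806 CPM in *Sirt6* cKO. Of these, 2 (*Foxn1* and *Ly75*) were higher and 0 lower at the unadjusted p, beside the same shares. *Prss16*, *Ctsl* and *Psmb11* went the other way, with log2 fold changes of -0.41, -0.35 and -0.25. All the markers that passed the unadjusted p had an edgeR adjusted p of 0.54 or 0.55. The 6 thymocyte markers summed to between 609 and 957 CPM and the 4 B cell markers to between 66.9 and 138 CPM, and in both lists the groups overlapped. The 6 markers of fibroblasts and endothelium summed to 169 and 202 CPM in WT and to 212 and 218 CPM in *Sirt6* cKO, without overlap. Their median log2 fold change was 0.40, and 0 of them passed the unadjusted p. In bulk libraries, fewer cells of a type and less RNA per cell cannot be told apart, and the part of these cells in the levels below was not tested.

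NEDD8 is made as a precursor whose tail is removed by the proteases SENP8 and UCHL3. It is then activated by a 2-subunit E1 enzyme, in which UBA3 holds the catalytic cysteine and NAE1 is the regulatory partner, passed to the E2 enzymes UBE2M or UBE2F, and joined to cullins with the help of RING and DCN-like proteins. A cullin that carries NEDD8 is the active scaffold of a cullin-RING ubiquitin ligase, and the COP9 signalosome removes NEDD8 again. In the thymus, ubiquitin ligases of this kind take part in NF-κB signaling, since a CUL1 ligase marks the NF-κB inhibitors for degradation.

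*Uba3* lies on the minus strand of chromosome 6, from 97183670 to 97205647 on GRCm38 (the assembly of mm10), and *Nae1* on the minus strand of chromosome 8, from 104511028 to 104534637. Because the 2 genes encode the subunits of a single enzyme but stood far apart in level, the 250 bases before the annotated start of each are shown, from RefSeq promoter sequences of GRCm38.p6, with every GC box (GGGCGG on either strand) in capitals. The first lies at chr6:97205648-97205897 and the second at chr8:104534638-104534887, and both are written 5′ to 3′ on the minus strand.
*Uba3*: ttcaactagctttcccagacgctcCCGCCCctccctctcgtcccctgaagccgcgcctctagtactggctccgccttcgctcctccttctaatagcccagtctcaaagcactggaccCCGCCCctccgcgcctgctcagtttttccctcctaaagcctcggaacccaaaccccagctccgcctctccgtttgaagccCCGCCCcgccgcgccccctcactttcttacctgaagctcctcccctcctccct
*Nae1*: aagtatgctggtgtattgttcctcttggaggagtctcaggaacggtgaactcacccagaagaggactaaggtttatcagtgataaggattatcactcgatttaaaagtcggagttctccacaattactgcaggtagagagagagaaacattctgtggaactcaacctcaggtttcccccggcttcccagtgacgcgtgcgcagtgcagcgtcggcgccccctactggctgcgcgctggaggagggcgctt

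The *Uba3* window held 3 GC boxes, 17 CpG dinucleotides and 63.6% G and C. The *Nae1* window held 0 GC boxes, 13 CpG and 52.8% G and C. Over all 32851 promoter windows of this length the median was 52.4% G and C and 6 CpG, 32.7% of windows held at least 1 GC box, and 8.47% held 3 or more. Neither a TATAAA box, found in 12.4% of all windows, nor a CCAAT box, found in 33.8%, was present in either of the pair on any strand. GC boxes were not particular to *Uba3*, since 1 of the *Cul1* windows and the *Cul3* window also held 3 each. Over the windows of the partners other than *Cul2*, G and C ran from 44.0% to 80.0% and CpG from 5 to 39. The *Uba3* values lay within both ranges. These are counts of letters, and none of the files measures binding or methylation there.

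*Uba3*, the catalytic part of the NEDD8 E1 enzyme, was 12.2-fold higher in *Sirt6* cKO mTECs, while none of its 9 partners differed past the test. The 2 WT libraries gave 218 and 201 counts for *Uba3*, and the 2 *Sirt6* cKO libraries gave 2404 and 2508. Both WT libraries were low and both *Sirt6* cKO libraries were high, and the replicates of each group lay close together. Mean CPM ± SD was 3.24 ± 0.122 for WT (n = 2) against 39.5 ± 0.515 for *Sirt6* cKO (n = 2), with a fitted log2 difference of 3.60 (SE 0.30) or 12.2-fold. Among 13496 genes with at least 100 counts in every library, *Uba3* ranked 3 by log2 fold change, and over all 18547 genes tested it ranked 138.

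**Figure D1:**
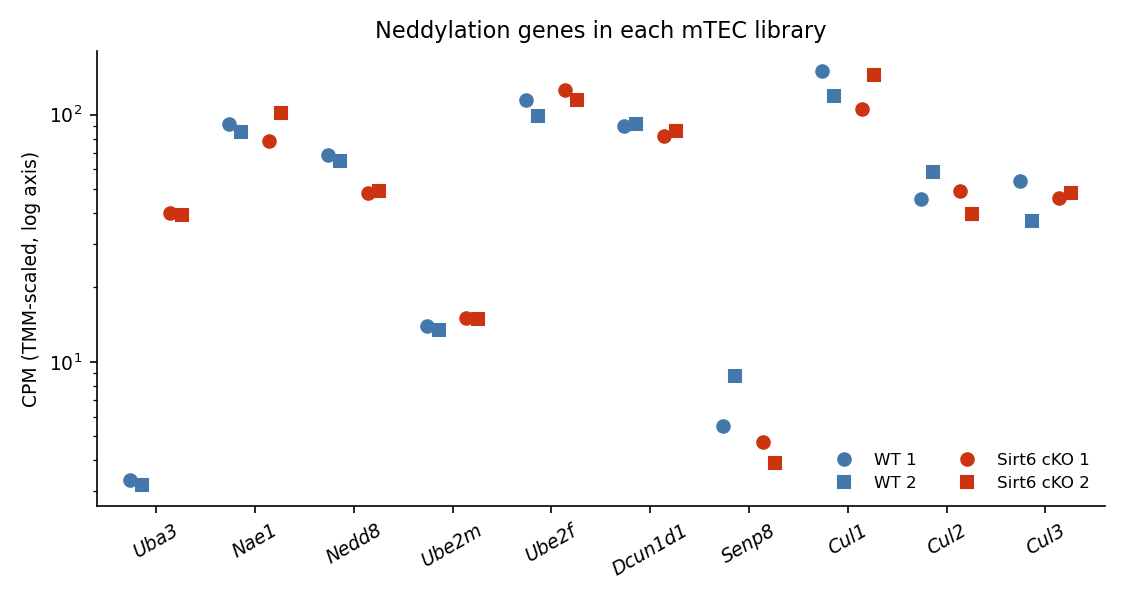
Level of the 10 neddylation genes in each library, in CPM scaled by TMM on a log axis, with 1 point per library (blue WT, red *Sirt6* cKO, circles replicate 1, squares replicate 2). *Uba3* stood at 3.24 CPM in WT and 39.5 CPM in *Sirt6* cKO, and the fold changes of the other genes were far smaller.

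In TPM, which is scaled by transcript length and allows levels of different genes to be compared, *Uba3* stood at 2.95 and 2.88 in WT and at 35.8 and 35.3 in *Sirt6* cKO. In WT it was the lowest of the 10 genes, just under *Senp8* at 3.11 and 5.03, and only 42.2% and 41.3% of all genes had a lower TPM. In *Sirt6* cKO it ranked 7 of the 10, next to *Cul3* at 36.3 and 38.1, and 79.7% and 79.5% of all genes lay below it. The ratio of count to TPM follows the length of the transcripts that the counts were assigned to. Set relative to the median gene of each library, it was 0.933 and 0.932 for *Uba3* in WT and 0.923 and 0.925 in *Sirt6* cKO, a range of 1.06%.

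*Nae1*, the regulatory subunit of the same enzyme, stood at 6009 and 5429 counts in WT, against 4724 and 6515 in *Sirt6* cKO. The highest and the lowest value were both from *Sirt6* cKO, so the groups overlapped. The log2 fold change was 0.02 (SE 0.22, 95% interval -0.54 to 0.58, edgeR adjusted p = 0.99), and it was below 0 with upper quartile normalization or library size alone. The *Uba3* TPM was thus 2.68% and 2.73% of the *Nae1* TPM in WT, and 38.0% and 28.7% in *Sirt6* cKO. The E1 enzyme of SUMO, another ubiquitin-like modifier, is also built of 2 subunits, and there the catalytic *Uba2* stood at 172% and 138% of *Sae1* in WT and at 198% and 255% in *Sirt6* cKO. In each of the 4 libraries the catalytic subunit was therefore below its partner for NEDD8 and above it for SUMO.

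**Figure D2:**
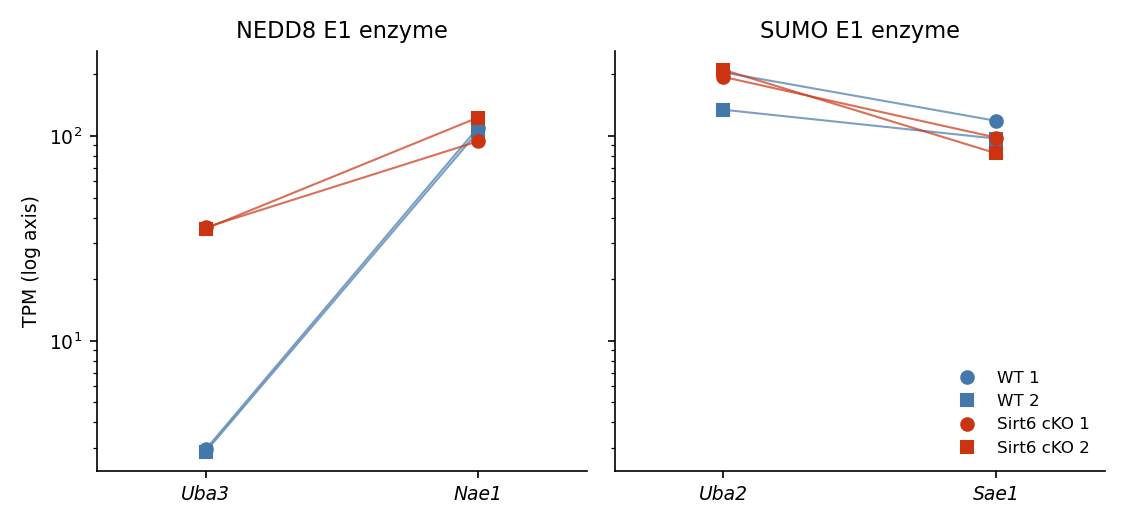
TPM on a log axis of the catalytic (left point) and partner subunit (right point) of the E1 enzymes of NEDD8 and SUMO, with 1 line per library (blue WT, red *Sirt6* cKO, circles replicate 1, squares replicate 2). The *Uba3* end of the lines moved from 2.95 and 2.88 in WT to 35.8 and 35.3 in *Sirt6* cKO, while the 4 libraries lay between 94.3 and 123 TPM at the *Nae1* end and *Uba2* lay above *Sae1* in each.

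None of the 9 partners passed an adjusted p of 0.05 (0 genes) or an unadjusted p of 0.05 (0 genes) in edgeR's quasi-likelihood test, where 0.00539% and 8.58% of all genes tested passed. DESeq2 also gave 0 partners at either threshold, where 1.83% and 10.2% of all genes passed. The median log2 fold change of the partners was -0.10, with 4 above and 5 below 0, beside a median of -0.0047 over all genes tested. Without WT 1 the median of the partners was 0.05, and without *Sirt6* cKO 1 it was 0.08. The upper ends of the 95% intervals reached at most 1.82-fold of WT, for *Ube2m*, against the 12.2-fold of *Uba3*. The lower ends reached 0.271-fold for *Senp8* and 0.504-fold for *Nedd8*. Changes within these intervals were not detectable with 2 libraries in each group. The groups did not overlap in CPM for 5 partners, beside 41.9% of all genes tested. Of these, 2 were higher and 3 lower in *Sirt6* cKO, beside 21.6% and 20.3%.

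**Figure D3:**
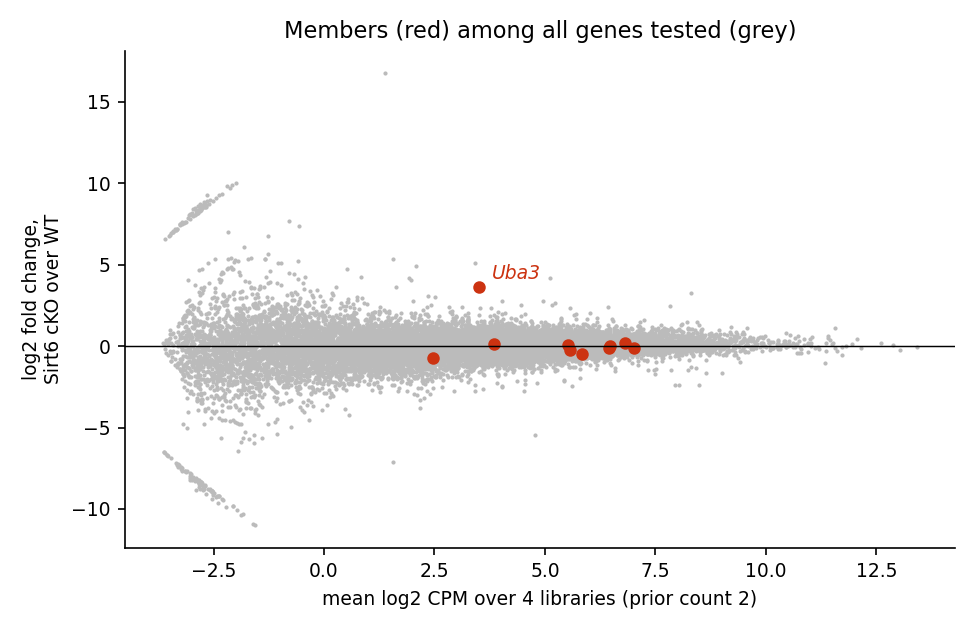
Log2 fold change of *Sirt6* cKO over WT against mean log2 CPM for all 18547 genes tested (grey) and the 10 neddylation genes (red). *Uba3* lies at 3.60 and the 9 partners between -0.73 and 0.18.

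*Nedd8*, the modifier itself, had the smallest p among the partners. It lies on chromosome 14 from 55662263 to 55672124, and its level was 68.6 and 64.7 CPM in WT and 48.0 and 49.0 CPM in *Sirt6* cKO. Both *Sirt6* cKO libraries were below both WT libraries. The log2 fold change was -0.46 (SE 0.21, 95% interval -0.99 to 0.07, edgeR adjusted p = 0.63). It passed the unadjusted p with upper quartile normalization, scaling by library size and limma on log2 TPM, and no adjusted p. In TPM it was the most abundant of the 10 genes in WT, at 247 and 240, and lay below *Ube2f* in *Sirt6* cKO, at 174 and 179. Its exons overlap those of *Gmpr2*, on the other strand, over 184 bases or 14.6% of their length. Whether the counting used strand is not given in the sources used here, so reads of the 2 genes in that stretch may not be told apart.

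*Senp8*, the protease that trims the NEDD8 precursor and removes NEDD8 from proteins other than cullins, was a low gene with 361 and 558 counts in WT, against 285 and 250 in *Sirt6* cKO. The *Sirt6* cKO libraries were both lower, but WT 2 lay well above WT 1. The log2 fold change was -0.73 (SE 0.46, edgeR adjusted p = 0.72), and it was -1.05 without WT 1 and -0.36 without WT 2. *Uchl3*, the other protease that trims the precursor, is not among the 10 genes, and its log2 fold change was -0.69 (SE 0.28, edgeR adjusted p = 0.60). It had 2041 and 1709 counts in WT, against 1203 and 1034 in *Sirt6* cKO, without overlap. It did not pass the unadjusted p in the main edgeR test. It passed with DESeq2, upper quartile normalization, library size alone and limma on log2 TPM, and no adjusted p.

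Of the E2 enzymes, *Ube2m* had 13.9 and 13.4 CPM in WT and 15.1 and 14.9 CPM in *Sirt6* cKO, and *Ube2f* had 114.3 and 98.3 CPM in WT and 126.0 and 114.4 CPM in *Sirt6* cKO. UBE2M serves the cullins that bind the RING protein RBX1, and UBE2F serves CUL5 with RNF7. The *Sirt6* cKO libraries lay just above WT in both genes, with log2 fold changes of 0.13 (SE 0.29) and 0.18 (SE 0.19). *Ube2f* was more abundant than *Ube2m* per length, at 171 ± 14.8 against 23.9 ± 0.842 TPM in WT (SD, n = 2) and at 193 ± 12.3 against 25.3 ± 0.0951 TPM in *Sirt6* cKO (SD, n = 2). *Dcun1d1*, a DCN-like protein that brings the loaded E2 to the cullin, had 89.7 and 91.6 CPM in WT and 81.8 and 85.4 CPM in *Sirt6* cKO, with a fitted log2 difference of -0.12 (SE 0.19). Of the 50-base words of its longest coding transcript, 40.2% also occur in other annotated genes, so its counts are less certain than those of the other members. The single gene that shares the most of these words is *Tes3-ps*. For *Uba3* that share was 1.49%, and for *Nae1* it was 0%.

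The cullins are the main targets of NEDD8. *Cul1*, the scaffold of the SCF ligases, had 149 and 119 CPM in WT and 106 and 145 CPM in *Sirt6* cKO. *Cul2*, which works with elongins and VHL, had 45.4 and 58.5 CPM in WT and 49.1 and 39.6 CPM in *Sirt6* cKO. *Cul3*, the scaffold for BTB proteins such as KEAP1, had 53.9 and 37.2 CPM in WT and 46.0 and 48.0 CPM in *Sirt6* cKO. In each of these 3 genes the groups overlapped, and the log2 fold changes were -0.10 (SE 0.24), -0.23 (SE 0.26) and 0.05 (SE 0.27), where the value of *Cul3* was below 0 with upper quartile normalization or library size alone. With 1 library left out, *Cul2* lay between -0.42 (without WT 1) and -0.03 (without WT 2). *Cul1* was the highest of the 3 per length, at 93.2 ± 13.3 TPM in WT (SD, n = 2), and the ranges of *Cul3* and *Cul2* overlapped in WT and were apart in *Sirt6* cKO.

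By mean TPM the order in WT was *Nedd8*, *Ube2f*, *Nae1*, *Cul1*, *Dcun1d1*, *Cul3*, *Cul2*, *Ube2m*, *Senp8* and *Uba3*. The ranges of neighbours overlapped for *Cul3* with *Cul2* and for *Cul2* with *Ube2m*. In *Sirt6* cKO, *Ube2f* and *Nedd8* changed places, *Uba3* stood between *Cul3* and *Ube2m*, and *Senp8* was last. There the ranges of *Nae1* with *Cul1* and of *Ube2m* with *Cul2* overlapped.

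Beyond the 10 genes, 27 further genes of the pathway had a median log2 fold change of -0.02, with 13 above and 14 below 0, and it was above 0 without WT 1 (0.05) or *Sirt6* cKO 2 (0.03). None was higher (0 genes) and 2 were lower at an unadjusted p of 0.05, beside 5.27% and 3.32% of all genes tested, and 0 passed an adjusted p of 0.05 with edgeR. With DESeq2, 1 was higher and 3 were lower at the unadjusted p, beside 5.8% and 4.38% of all genes, and 0 passed the adjusted p. The 2 lower genes were *Cops4*, a subunit of the COP9 signalosome, with a log2 fold change of -0.54 (SE 0.19, edgeR adjusted p = 0.55), and *Commd1*, which encodes a protein that binds cullins, with -0.65 (SE 0.22, edgeR adjusted p = 0.55). *Cops4* had 7453 and 6938 counts in WT, against 4703 and 4858 in *Sirt6* cKO. With any single library left out it no longer passed the unadjusted p, and its log2 fold change then lay between -0.57 and -0.53. *Commd1* had 5823 and 4707 counts in WT, against 3022 and 3468 in *Sirt6* cKO. It passed without WT 2 and did not pass without WT 1, *Sirt6* cKO 1 or *Sirt6* cKO 2, and its log2 fold change then lay between -0.77 and -0.53.

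The 10 subunits of the COP9 signalosome had a median log2 fold change of -0.03, with 3 above and 7 below 0, and *Cops5*, the subunit that cleaves NEDD8 from cullins, stood at -0.04 (SE 0.23). The RING genes *Rbx1* and *Rnf7* stood at -0.03 (SE 0.26) and -0.06 (SE 0.25). *Cand1*, which exchanges the substrate receptors of cullins without NEDD8, stood at 0.33 (SE 0.20). The highest value of the list was 1.07 for *Cul7* (SE 0.54, edgeR adjusted p = 0.65), which had 765 and 1625 counts in WT, against 3214 and 1587 in *Sirt6* cKO. The groups overlapped in *Cul7*, and the value passed the unadjusted p without WT 2 (1.74), without *Sirt6* cKO 2 (1.48) and with DESeq2 (1.05). *Uchl3* had the lowest value.

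**Figure D4:**
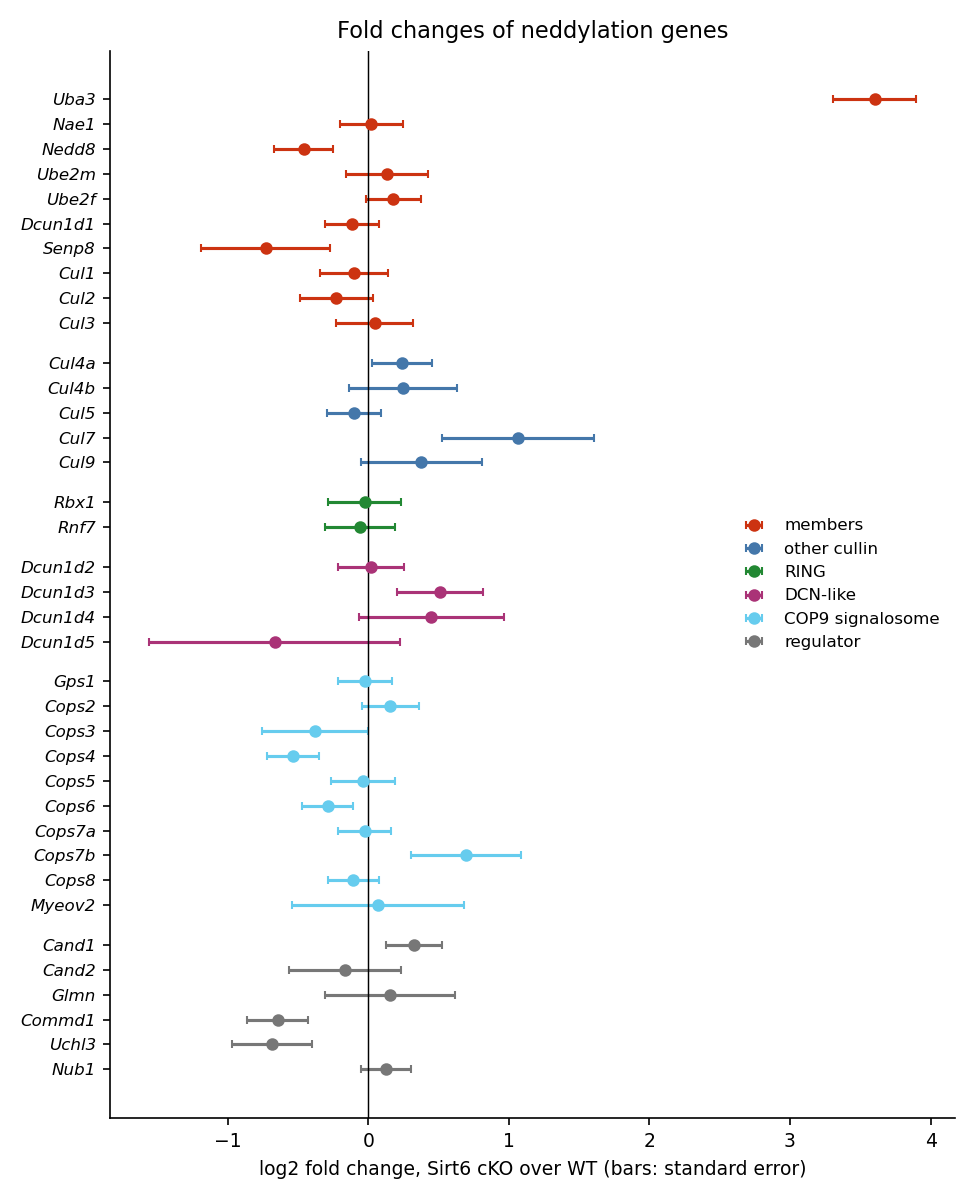
Log2 fold change of *Sirt6* cKO over WT with its standard error (bars) for the 10 neddylation genes (red) and 27 further genes of the pathway, colored by role (*Myeov2* is the listed name of *Cops9*). *Uba3* stands alone at 3.60, and the other 36 genes lie between -0.73 and 1.07.

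Among 18 adaptors, receptors and helpers of cullin-RING ligases the median log2 fold change was 0.11, with 13 above and 5 below 0. At an unadjusted p of 0.05, 1 was higher and 0 were lower with edgeR, beside 5.27% and 3.32% of all genes tested. With DESeq2, 1 was higher and 1 lower, beside 5.8% and 4.38%, and 0 passed an adjusted p of 0.05 with either. The higher gene was *Ddb1*, the adaptor of the CUL4 ligases, which had 30230 and 27028 counts in WT, against 36863 and 36614 in *Sirt6* cKO. This gave a log2 fold change of 0.41 (SE 0.15, edgeR adjusted p = 0.55), and it did not pass the unadjusted p with any of the 4 libraries left out, where it lay between 0.36 and 0.45, nor with upper quartile normalization (0.33) or library size alone (0.33). The highest value of the list was 0.49 for *Cdc34*, an E2 enzyme of these ligases (SE 0.48). The lowest was -0.61 for *Crbn*, a substrate receptor of CUL4 ligases (SE 0.26, edgeR adjusted p = 0.61), and it passed the unadjusted p with DESeq2 (-0.63), upper quartile normalization (-0.69) and library size alone (-0.70). Without WT 1 it stood at -0.89 and passed as well, and without WT 2 it stood at -0.30.

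The 8 E1 genes of other modifiers had a median log2 fold change of 0.08, with 5 above and 3 below 0. At an unadjusted p of 0.05, 0 passed with edgeR or with DESeq2, beside 8.58% and 10.2% of all genes. At the adjusted p, 0 passed with either, beside 0.00539% and 1.83%. With upper quartile normalization the median was -0.00031 and with library size alone -0.01, and it was also below 0 without WT 2, *Sirt6* cKO 1 or *Sirt6* cKO 2. The values ranged from -1.50 for *Mocs3* (SE 1.26), which had between 18 and 78 counts, to 0.36 for *Uba1*, the main ubiquitin E1 (SE 0.23).

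The 6 nearest genes of the count table on chromosome 6 had log2 fold changes between -0.68 and 0.90, against 3.60 for *Uba3*. None of them overlaps it in RefSeq (0 genes), and the closest were *Tmf1*, at a distance of 4.48 kb, and *Arl6ip5*, at 5.14 kb on the other side. *Tmf1* had 9790 and 7814 counts in WT, against 6447 and 8467 in *Sirt6* cKO (log2 fold change -0.19, SE 0.21). *Arl6ip5* had 14730 and 15851 counts in WT, against 11833 and 11425 in *Sirt6* cKO (log2 fold change -0.34, SE 0.17, edgeR adjusted p = 0.64). Farther out, *Eogt* (listed in the files as *A130022J15Rik*) stood at 0.90 (SE 0.42), *Frmd4b* at 0.26 (SE 0.28), *Tafa4* (listed as *Fam19a4*) at -0.33 (SE 0.33) and *Lmod3* at -0.68 (SE 0.78). Without *Sirt6* cKO 1 *Eogt* stood at 0.38, and without *Sirt6* cKO 2 at 1.24, where it passed the unadjusted p. With all libraries, edgeR called 0 of the 6 at an unadjusted p of 0.05, beside 8.58% of all genes tested. At the adjusted p 0 passed, beside 0.00539%.

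**Figure D5:**
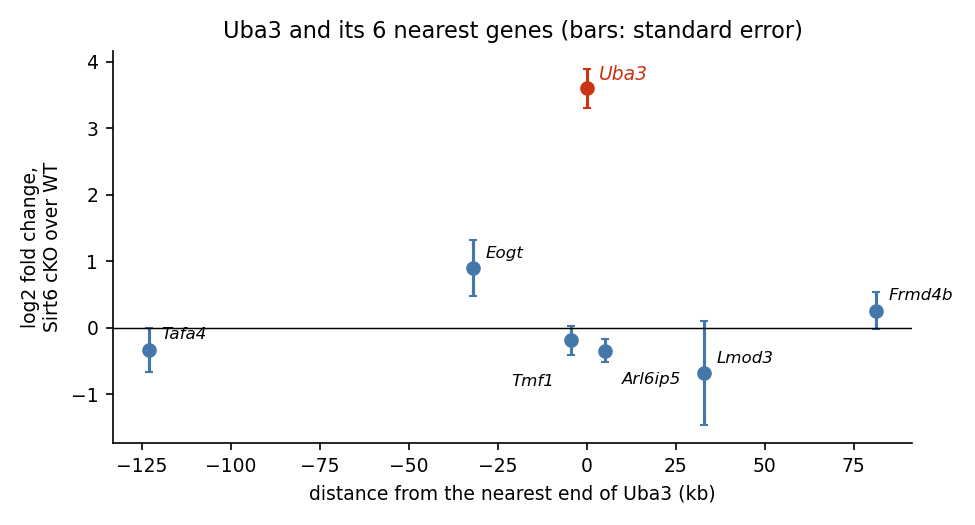
Log2 fold change of *Sirt6* cKO over WT with its standard error (bars) for *Uba3* (red) and its 6 nearest genes (blue), against the distance in kb from the nearest end of *Uba3*. *Uba3* lies at 3.60, and its neighbours lie between -0.68 and 0.90.

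The genes whose pattern over the 4 libraries was most like that of *Uba3*, by the distance of their centred log2 CPM (prior count 2), were *Prl8a8*, *Prss42*, *Pip4k2b*, *Fate1* and *Magix*, at distances from 0.149 to 0.338. All 5 were far lower in level than *Uba3*. *Prl8a8*, *Prss42*, *Fate1* and *Magix* had 0 counts in both WT libraries and between 16 and 26 counts in each *Sirt6* cKO library, where the prior count sets the size of the pattern. *Pip4k2b*, which encodes a phosphoinositide kinase, had 11 counts in each WT library and 176 and 139 in *Sirt6* cKO. The partners of *Uba3* lay at distances between 3.42 for *Ube2f* and 4.32 for *Senp8*. A gene without any change would lie near the log2 fold change of *Uba3* itself, 3.60. These distances therefore restate the difference by which the set was chosen and are no separate evidence on the partners.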

How the data were processed

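Per the study's methods, reads were inspected with FastQC, adaptors were removed with Trim Galore, HISAT2 (2.1.0) placed the reads on mm10 and StringTie (1.3.3) gave the authors' counts and TPM, the versions being those of the submitters' processing notes. The deposited counts are raw whole numbers, 1 per library for each of 23337 gene symbols, and the deposited TPM values came with a total line that names no gene, which equals the sum of all genes and was left out. The gene annotation, the strand setting and the way StringTie coverage became counts are not given in the sources used here.

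Counts were tested with edgeR 4.0.16 in R 4.3.3 (TMM, filterByExpr with minimum count 10 and minimum total 15, glmQLFit, glmQLFTest) over 18547 genes, with Benjamini-Hochberg adjustment over all of them and a threshold of 0.05. Standard errors are the log2 fold change divided by the root of the F statistic, and 95% intervals use the test's degrees of freedom. The study used DESeq2, which served as an alternative (1.42.0) beside other scalings and filters, a replicate block, limma 3.58.1 on log2(TPM + 1) and log2(TPM + 0.1), and each library left out. An exact permutation test of 2 against 2 libraries cannot go below p = 0.333 and was not used. The procedure was run on simulated counts with less spread than these data and with larger changes than those of the partners. Its power for small changes was not tested.

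The members and the lists were chosen with earlier results of these data known. Named are the 10 members, in each further list the genes at an unadjusted p of 0.05 and the highest and lowest value, the 3 nearest genes on each side of *Uba3*, the 5 genes most like it, and *Sirt6*. *Cops5*, *Rbx1*, *Rnf7*, *Cand1*, *Uba2*, *Krt8*, *Fezf2*, *Prss16*, *Ctsl*, *Psmb11*, *Csf1r*, *Itgax*, *Itgam* and *Sae1* were named after their values were seen. Positions and exon overlaps are from GENCODE M21, and neighbours and promoters from RefSeq, both on GRCm38. Replicates were not duplicates, with a chi-square per gene of 154 or more.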

Additional observations from a re-analysis of the deposited data

How the results depend on the processing

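The biological coefficient of variation was 0.557, with 2 libraries in each group. The log2 fold change of *Uba3* was 3.52 with upper quartile normalization, 3.52 with library size alone and 3.22 with limma on log2(TPM + 1), a scale that understates low genes. Among the 9 partners, 1 gene (*Nedd8*, lower) passed the unadjusted p with upper quartile normalization, with scaling by library size and with limma at either pseudocount, and 0 passed an adjusted p in any alternative. For the 27 further pathway genes the unadjusted calls were 4 with DESeq2 and 0 with the replicate block. They were 3 with upper quartile normalization, library size alone or limma. The unadjusted calls were 2 with DESeq2 and 0 with the replicate block for the adaptors, and 1 of the genes beside *Uba3* with library size alone. With 1 library left out, which leaves a group with a single library assumed to vary like the other, these counts lay between 0 and 2 for the pathway genes and between 0 and 1 for the adaptors, the other E1 genes and the genes beside *Uba3*.

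Under upper quartile normalization *Nae1* lay at -0.055 and *Cul3* at -0.035. Under library size alone they lay at -0.065 and -0.040, against values above 0 with TMM. With libraries left out, *Nae1* lay between -0.21 and 0.20, *Cul1* between -0.37 and 0.11, *Cul3* between -0.20 and 0.32, *Lmod3* between -1.34 and 0.21 and *Frmd4b* between -0.12 and 0.53. The replicate numbers showed no shared shift between the groups (correlation over genes of WT 1 minus WT 2 with *Sirt6* cKO 1 minus *Sirt6* cKO 2, -0.05). This value cannot show whether the libraries were paired by litter or by day.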
